A study of Mus musculus with 36 samples.

Results

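The genes described here are 9 adherens and tight junction genes of compaction, Cdh1, Ctnnb1, Ctnna1, Cldn4, Cldn6, Cldn7, Tjp1, Ocln and F11r. They were taken by name from a table of 23845 gene symbols, and all 9 have a row in it. The table comes from RNA-seq of mouse embryos in a study whose title concerns the retrotransposon LINE-1 and chromatin accessibility after fertilisation. It holds 36 libraries, each made by SMART-seq v4 cDNA amplification from 4 to 5 pooled embryos. At the 2-cell stage there were 4 libraries of treatment NI, 7 of Ctrl and 6 of KRAB, and at the 8-cell stage 6 of NI, 6 of Ctrl and 7 of VP64. KRAB commonly denotes a repressor domain and VP64 an activator domain of transcription. What the letters NI stand for, what Ctrl embryos were given, the sequence that KRAB or VP64 was directed to, and the mouse strain are not stated in the labels, which mention injection of the embryos without naming the material. The labels name no separate cultures, animals or days, so p-values measure the spread between pools, which may be partly technical.

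Compaction is the step at which the rounded blastomeres of the cleaving mouse embryo flatten against each other. It rests on adherens junctions, in which E-cadherin binds E-cadherin on the neighbouring cell and is tied to the actin cortex by beta-catenin and alpha-catenin. Tight junctions assemble afterwards on the outer cells of the morula, from claudins, occludin and junctional adhesion molecules in the membrane and scaffold proteins such as ZO-1 beneath it, and they seal the trophectoderm so that the blastocyst can fill with fluid. E-cadherin and the catenins are present as maternal protein in the egg, so their transcript levels and their protein levels need not run together in cleavage embryos.

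Total estimated counts per library ranged from 1043740 to 13583527. Their median was 7176488 in Ctrl, 2344780.5 in NI and 2636352.5 in KRAB 2-cell libraries. At the 8-cell stage it was 5172670 in NI, 3900515.5 in Ctrl and 3640555 in VP64. Depth thus differed between treatments at the 2-cell stage, and its part in their comparisons was not tested. Values are given as CPM, the count of a gene scaled to counts per 1000000 of its library's TMM-adjusted total. The stage labels were checked with marker genes. The summed level of 11 maternal transcripts was 4949 to 43265 CPM at the 2-cell and 72.4 to 780 CPM at the 8-cell stage. That of 10 genes of the 8-cell embryo and morula was 44.05 to 474 CPM and 896 to 2148 CPM. Neither sum overlapped between the stages. The morula sum was mostly Dppa4, Tdgf1 and Fbp2, with means of 662.2, 323.6 and 500.6 CPM in NI 8-cell libraries. Dppa4 was already at 162.98 CPM in NI 2-cell libraries. Upp1, Id2 and Sox2 of that list had lower means in every 8-cell group than in every 2-cell group. In NI they fell from 8.353, 19.96 and 3.322 CPM to 2.228, 5.696 and 0.239 CPM. The other genes of that list had higher means in every 8-cell group. A list of 10 genes of the 2-cell embryo did overlap, with sums from 842 to 3627 CPM at the 2-cell and from 443 to 2490 CPM at the 8-cell stage. Most of the 8-cell sums was Sp110, with means of 743 CPM in NI, 1394 in Ctrl and 828 in VP64. Its 2-cell means were 573 CPM in NI, 425 in Ctrl and 589 in KRAB. Each other gene of the list had a lower mean in every 8-cell group than in every 2-cell group. The sums of 20 cumulus and granulosa markers reached 437 CPM in KRAB, 176 CPM in Ctrl and 174 CPM in NI at the 2-cell stage and 435 CPM in VP64, 100.1 CPM in Ctrl and 93.6 CPM in NI at the 8-cell stage, with Col1a2, Col3a1 and Lum at 0 counts in all 17 libraries of the 2-cell stage and all 19 of the 8-cell stage. In NI and Ctrl 8-cell libraries the granulosa sums were mostly Amhr2, with means of 65.497 and 61.47 CPM. There 12 and 15 of the 20 markers were at 0 counts in every library. The sums of 10 sperm markers were 26.5 to 318 CPM and 0.886 to 23.3 CPM, with Smcp at 0 counts in every library. They were mostly Odf2, with 2-cell means of 55.96 CPM in NI, 171.1 in Ctrl and 73.07 in KRAB. Its 8-cell means were 10.81 CPM in NI, 11.17 in Ctrl and 7.553 in VP64. The next highest mean of a sperm marker was 5.5002 CPM, of Prm2 in NI 2-cell libraries. Whether sperm or cumulus RNA was present, and the part of either list in the stage differences, was not tested. Among the members, 3 libraries stood apart. In the Ctrl 2-cell group replicate 3 was high in Cldn4 and Cldn7, in the Ctrl 8-cell group replicate 6 was low in Cldn4, Cldn7 and F11r, and in the VP64 8-cell group replicate 7 was low in Cldn6 and F11r. The stage differences of Cldn4, Cldn7 and F11r in Ctrl are given with and without the Ctrl libraries. In a pool, fewer cells with a transcript and less of it per cell cannot be told apart.

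The promoters of the 3 claudin genes and of F11r are shown because Cldn4, Cldn7 and F11r differed between the stages in both treatments that had both stages, while Cldn6, a claudin gene of similar exon length, did not pass the test in either. Windows run from 250 bases before to 50 bases after an annotated start, on the gene's own strand, 5′ to 3′, from RefSeq on GRCm38.p6, and capitals mark matches to the motifs named below.
Cldn4, chr5:134946885-134947184, minus strand: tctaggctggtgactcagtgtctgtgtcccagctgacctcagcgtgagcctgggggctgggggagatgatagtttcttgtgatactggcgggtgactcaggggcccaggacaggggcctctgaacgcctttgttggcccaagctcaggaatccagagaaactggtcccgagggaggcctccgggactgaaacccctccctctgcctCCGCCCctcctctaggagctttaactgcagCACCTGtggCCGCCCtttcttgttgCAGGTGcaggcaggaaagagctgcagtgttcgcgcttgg
Cldn7, chr11:69964529-69964828, plus strand: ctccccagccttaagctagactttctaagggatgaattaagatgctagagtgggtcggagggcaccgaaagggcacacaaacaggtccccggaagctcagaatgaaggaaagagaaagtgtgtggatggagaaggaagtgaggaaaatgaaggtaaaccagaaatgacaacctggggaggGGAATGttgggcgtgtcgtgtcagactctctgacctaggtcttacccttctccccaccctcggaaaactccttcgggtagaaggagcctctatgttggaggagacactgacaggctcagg
Cldn7, chr11:69965171-69965470, plus strand: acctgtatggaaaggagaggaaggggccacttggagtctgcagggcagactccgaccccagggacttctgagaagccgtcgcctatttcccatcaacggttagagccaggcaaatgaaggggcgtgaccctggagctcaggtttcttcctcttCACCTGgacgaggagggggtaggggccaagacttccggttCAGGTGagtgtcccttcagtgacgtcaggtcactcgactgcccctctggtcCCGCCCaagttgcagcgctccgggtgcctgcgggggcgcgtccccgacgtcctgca
F11r, chr1:171437311-171437610, plus strand: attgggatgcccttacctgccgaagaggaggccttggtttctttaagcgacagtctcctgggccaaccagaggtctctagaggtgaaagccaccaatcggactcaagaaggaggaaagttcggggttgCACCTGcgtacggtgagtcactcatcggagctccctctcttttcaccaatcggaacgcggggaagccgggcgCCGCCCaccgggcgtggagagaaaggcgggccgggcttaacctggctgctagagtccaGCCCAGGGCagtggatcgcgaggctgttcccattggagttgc
Cldn6, chr17:23679115-23679414, plus strand: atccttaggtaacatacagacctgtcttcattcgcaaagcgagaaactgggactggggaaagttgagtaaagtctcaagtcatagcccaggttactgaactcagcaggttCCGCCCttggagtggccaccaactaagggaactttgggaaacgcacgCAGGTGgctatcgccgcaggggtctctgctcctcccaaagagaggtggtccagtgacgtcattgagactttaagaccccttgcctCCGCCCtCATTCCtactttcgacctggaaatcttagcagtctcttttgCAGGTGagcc
The letters searched, on both strands, were GCCNNNGGC for TFAP2, GGAATG for TEAD, GGGCGG for KLF and SP factors, CACCTG for an E-box and TATAAA for a TATA box. In the Cldn4 window there were 2 matches to the KLF and SP letters and 2 to the E-box letters. The first Cldn7 window held 1 TEAD match and the second held 1 KLF and SP match and 2 E-box matches. The F11r window held 1 match each to the TFAP2, KLF and SP, and E-box letters. The Cldn6 window held 1 TEAD match, 2 KLF and SP matches and 2 E-box matches, so no motif of the 5 was in Cldn4, Cldn7 and F11r and missing from Cldn6. Among 32851 promoter windows of the same length the share with a match was 16.6% for TFAP2, 14.7% for TEAD, 35.7% for KLF and SP, 20.2% for the E-box and 13.6% for the TATA box. A match describes letters only. Windows were found for 7 of the 9 members, and none for Cdh1 and Ctnna1.

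By the edgeR quasi-likelihood test at an adjusted p under 0.05, 4 of the 9 genes (Cdh1, Cldn4, Cldn7 and F11r) rose from the 2-cell to the 8-cell stage in NI and 0 fell, where 18.5% of 13158 genes tested were higher and 31.4% lower. In Ctrl 3 of the 9 (Cldn4, Cldn7 and F11r) rose and 0 fell, where 22.5% of all genes were higher and 39% lower. The median log2 fold change of the 9 genes was 0.99 in NI, against -0.47 over all genes, and 0.56 in Ctrl, against -0.51. Groups without overlap, with every 8-cell library above every 2-cell library, were found for Cdh1, Cldn4, Cldn7 and F11r in NI, 4 of 9 where 13.6% of all genes had this, and for Cldn7 in Ctrl, 1 of 9 where 7.4% had it. Other scalings moved the median of all genes to as low as -0.75 in NI and to between -0.84 and -0.24 in Ctrl, and Cldn4, Cldn7 and F11r stayed past the threshold and positive under each. All 9 genes passed the filter on low counts in each fit.

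**Figure D1:**
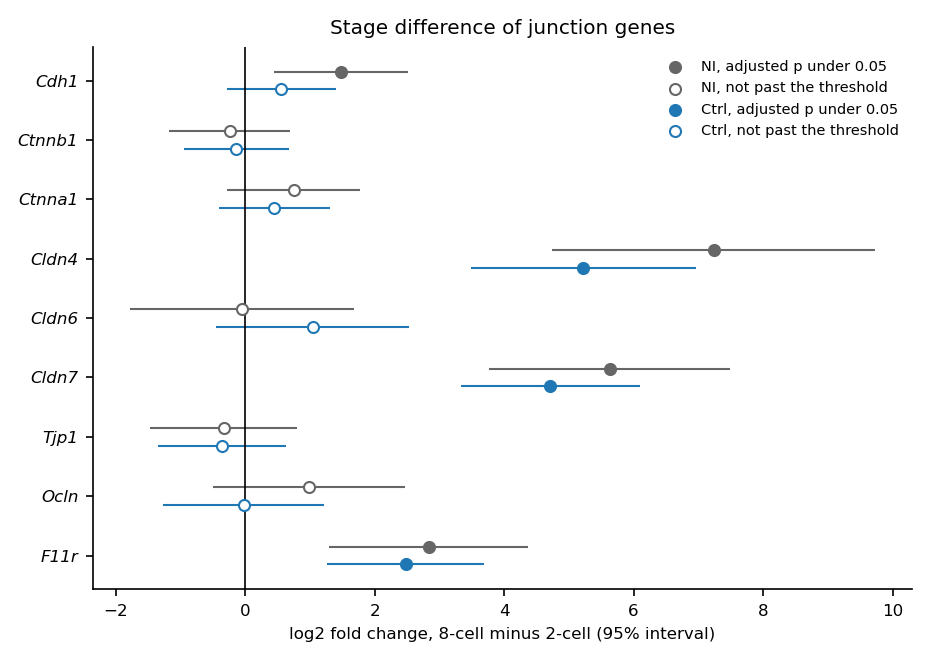
Log2 fold change of the 8-cell minus the 2-cell stage for the 9 genes (horizontal axis) in NI and Ctrl embryos, with bars for the 95% interval and filled points for adjusted p under 0.05 in edgeR. Cldn4, Cldn7 and F11r are filled in both treatments and Cdh1 in NI, and the NI and Ctrl intervals of each gene overlap.

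Of the cadherin and catenin genes, Cdh1 passed the test between stages in NI embryos and none passed in Ctrl embryos. Cdh1, the gene of E-cadherin (chromosome 8 from 106603351 to 106670246, plus strand, GRCm38), measured 7.55, 16.2, 21.8 and 24.5 CPM in the 4 NI 2-cell libraries and from 29.0 to 84.3 CPM with a median of 44.6 in the 6 NI 8-cell libraries. All 6 NI 8-cell libraries lay above all 4 NI 2-cell libraries. Its log2 fold change was 1.48 ± 0.51 (SE), a 2.79-fold rise with a 95% interval of 1.36 to 5.73 (edgeR quasi-likelihood test, adjusted p = 0.0157). This call was lost without NI 2-cell replicate 1 (log2 fold change 1.24, adjusted p = 0.0654) or replicate 2 (1.33, adjusted p = 0.0567), and with library totals in place of TMM scaling (1.14, adjusted p = 0.0618). In Ctrl embryos Cdh1 ranged from 10.7 to 45.6 CPM with a median of 24.2 at the 2-cell stage and from 9.54 to 88.2 CPM with a median of 30.8 at the 8-cell stage. These groups overlapped over most of their range, and the log2 fold change was 0.56 ± 0.42 (SE, edgeR adjusted p = 0.248). The difference between the NI and Ctrl stage differences was itself not past the threshold for Cdh1, at -0.92 ± 0.65 (SE, log2, Ctrl minus NI, edgeR adjusted p = 0.435).

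Neither catenin gene passed the test between stages. Ctnnb1, the gene of beta-catenin (chromosome 9 from 120929216 to 120960507, plus strand), measured 38.9, 42.3, 84.7 and 144 CPM in NI 2-cell libraries and 48.2 to 90.4 CPM with a median of 72.7 in NI 8-cell libraries. In Ctrl its range was 31.02 to 151 CPM with a median of 65.6 at the 2-cell stage and 42.2 to 138 CPM with a median of 66.4 at the 8-cell stage. The stage groups covered much the same range in both treatments, with log2 fold changes of -0.24 ± 0.46 in NI and -0.14 ± 0.40 in Ctrl (SE, edgeR adjusted p = 0.688 and 0.774). The 95% intervals were -1.17 to 0.70 and -0.95 to 0.67. Ctnnb1 overlaps 759 exonic bases of Ulk4 on the opposite strand, and 13.2% of its 31-base words occur in Ulk4, so reads may have been divided between the 2 genes.

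Ctnna1, the gene of alpha-catenin, which joins the cadherin complex to actin (chromosome 18 from 35118859 to 35254779, plus strand), measured 30.5, 38.5, 74.9 and 189 CPM in NI 2-cell libraries and 85.6 to 226 CPM with a median of 139 in NI 8-cell libraries. All 6 of the 8-cell values lay above 3 of the 4 NI 2-cell values, and NI 2-cell replicate 3 lay within their range. With all libraries the log2 fold change was 0.75 ± 0.51 (SE, edgeR adjusted p = 0.22), and without replicate 3 it was 1.55 ± 0.55 (adjusted p = 0.0204). Replicate 3 was the highest of its group, so a higher value was bound to follow from leaving it out. Ctnna1 also passed with limma-voom and quality weights (1.58, adjusted p = 0.00102) and in libraries of at least 1500000 counts (1.77, edgeR adjusted p = 0.0130). That depth minimum leaves out replicate 3 too, at 1376619 counts. In Ctrl the range was 30.9 to 169 CPM with a median of 110 at the 2-cell stage and 84.7 to 281 CPM with a median of 145 at the 8-cell stage, a log2 fold change of 0.45 ± 0.43 (SE, edgeR adjusted p = 0.368).

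Cldn4 had the highest log2 fold changes of the 9 genes in both treatments. Claudin-4 is one of the membrane proteins that form the strands of a tight junction, and its gene has a single annotated transcript (chromosome 5 from 134945119 to 134946934, minus strand). It measured 0, 0.328, 0.581 and 10.3 CPM in NI 2-cell libraries and 153 to 920 CPM with a median of 452 in NI 8-cell libraries. The groups were far apart, with no value between 10.3 and 153 CPM. Cldn4 had a log2 fold change of 7.24 ± 1.23 (SE, edgeR adjusted p = 9.82e-06), on only 47 counts in all over the NI 2-cell libraries. Without NI 2-cell replicate 2, which held the highest of these values, it was 10.30. In Ctrl the range was 2.43 to 90.4 CPM with a median of 4.57 at the 2-cell stage and 27.02 to 1188 CPM with a median of 617 at the 8-cell stage. The groups overlapped through Ctrl 2-cell replicate 3 at 90.4 CPM, where the other libraries were at or under 6.74 CPM, and Ctrl 8-cell replicate 6 at 27.02 CPM, where the others were at or above 500 CPM. With all libraries the log2 fold change was 5.22 ± 0.86 (SE, edgeR adjusted p = 2.85e-06), and without those libraries it was 7.45 ± 0.78 (adjusted p = 2.12e-09). Those libraries were picked by their Cldn4 values, so leaving them out was bound to raise the difference and is no separate support for it.

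Cldn7 separated the stages in every library of both treatments. Claudin-7 (chromosome 11 from 69964779 to 69967885, plus strand) measured 3.78, 4.64, 6.14 and 7.51 CPM in NI 2-cell libraries and 197 to 549 CPM with a median of 234 in NI 8-cell libraries. In Ctrl it ranged from 0.537 to 52.5 CPM with a median of 2.32 at the 2-cell stage and from 90.99 to 520 CPM with a median of 254 at the 8-cell stage. All 6 of the 8-cell libraries lay above all 2-cell libraries in either treatment, and the closest approach was again between Ctrl 2-cell replicate 3 and Ctrl 8-cell replicate 6. The log2 fold change was 5.63 ± 0.92 in NI and 4.71 ± 0.68 in Ctrl (SE, edgeR adjusted p = 5.31e-06 and 3.01e-07). Without those libraries, which lay at the near ends of their groups in Cldn7 too, the Ctrl value was 6.83 ± 0.59 (adjusted p = 1.01e-10). A higher value was bound to follow from that choice.

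Ctrl 2-cell replicate 3 had a maternal sum of 13934 CPM, within the range of the 2-cell stage, and a morula sum of 339 CPM, the highest of the Ctrl 2-cell group. Ctrl 8-cell replicate 6 had the highest maternal sum of the 19 libraries of the 8-cell stage, 780 CPM, and the lowest morula sum of the Ctrl 8-cell group, 1006 CPM. It also had the fewest genes detected of that group, 9672. The part of these in the Cldn4 and Cldn7 levels was not tested.

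Cldn6, the third claudin of the set, did not pass the test in either treatment. Claudin-6 is known as a claudin of embryonic epithelia (chromosome 17 from 23679249 to 23682446, plus strand), and the gene lies 137 bases from Cldn9 on the opposite strand. It measured 11.6, 16.8, 35.8 and 50.4 CPM in NI 2-cell libraries and 2.59 to 71.2 CPM with a median of 22.5 in NI 8-cell libraries. In Ctrl it ranged from 0 to 47.5 CPM with a median of 6.65 at the 2-cell stage and from 4.41 to 114 CPM with a median of 31.5 at the 8-cell stage. The stages overlapped widely in both treatments. The log2 fold change was -0.05 ± 0.86 in NI and 1.04 ± 0.74 in Ctrl (SE, edgeR adjusted p = 0.97 and 0.22), and limma-voom with quality weights gave 2.65 in Ctrl with an adjusted p of 0.00292.

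The make-up of the 3 claudins' counts within a library shows these levels side by side. The exons of Cldn4, Cldn6 and Cldn7 span similar lengths, 1816, 1721 and 1948 bases. Cldn6 held a median of 75.1% of their counts in NI 2-cell libraries, 85.9% in KRAB 2-cell libraries and 37.5% in Ctrl 2-cell libraries, where its share ran from 0 to 89.3%. The Ctrl 2-cell values rest on few counts in some libraries, such as 4, 3 and 1 for Cldn4, Cldn6 and Cldn7 in replicate 6, which gives the median, and 17, 0 and 2 in replicate 1, which gives the lowest share. Libraries with more counts also differed. Replicate 3 had 670, 189 and 389 counts and a Cldn6 share of 15.1%, and replicate 2 had 31, 453 and 23 and a share of 89.3%. At the 8-cell stage its median share was 3.26% in NI, 3.02% in Ctrl and 12.5% in VP64. The highest share of Cldn6 in any of the 8-cell libraries was 18.3%, and the lowest in NI and KRAB 2-cell libraries was 51.3%. Cldn4 then held a median of 54.2%, 59.5% and 52.6% and Cldn7 38.9%, 32.9% and 36.6% in NI, Ctrl and VP64.

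**Figure D2:**
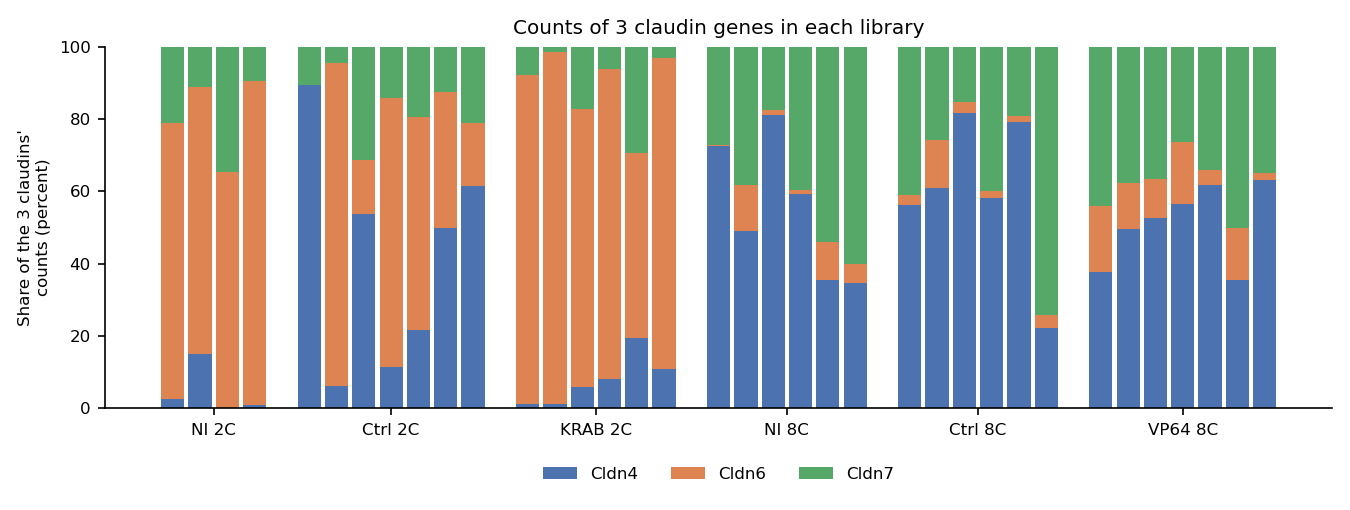
Share of the summed counts of Cldn4, Cldn6 and Cldn7 held by each gene in percent (vertical axis), with 1 bar per library grouped by treatment and stage and in replicate order. Cldn6 takes most of the bar in NI and KRAB 2-cell libraries and at most 18.3% of it in the 19 libraries of the 8-cell stage, while the Ctrl 2-cell libraries vary between these patterns.

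F11r, the gene of junctional adhesion molecule A, which recruits polarity proteins to forming tight junctions, was the remaining member that rose in both treatments (chromosome 1 from 171437535 to 171464603, plus strand). It measured 6.14, 6.39, 73.9 and 84.7 CPM in NI 2-cell libraries and 89.9 to 754 CPM with a median of 268 in NI 8-cell libraries. Every NI 8-cell library lay above every NI 2-cell library, though the lowest of the former and the highest of the latter were close. F11r had a log2 fold change in NI of 2.83 ± 0.76, a 7.12-fold rise with a 95% interval of 2.45 to 20.7 (SE, edgeR adjusted p = 0.00229). In Ctrl it ranged from 11.9 to 156 CPM with a median of 22.9 at the 2-cell stage and from 64.0 to 560 CPM with a median of 360 at the 8-cell stage, with 5 of 6 of the 8-cell libraries above all 2-cell libraries. Its log2 fold change in Ctrl was 2.48 ± 0.60 (SE, edgeR adjusted p = 0.000567), and it was 2.91 ± 0.65 (adjusted p = 0.000261) without Ctrl 2-cell replicate 3 and Ctrl 8-cell replicate 6. In F11r the former lay above the median of its group, at 86.9 CPM, and the latter was the lowest of its group. A higher value was bound to follow from leaving them out and is no separate support.

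Tjp1 encodes ZO-1, the scaffold beneath the tight junction (chromosome 7 from 65296165 to 65527781, minus strand). It measured 8.71, 8.91, 27.99 and 49.6 CPM in NI 2-cell libraries and 13.6 to 27.2 CPM with a median of 20.9 in NI 8-cell libraries. In Ctrl it ranged from 4.56 to 37.1 CPM with a median of 18.8 at the 2-cell stage and from 1.91 to 46.3 CPM with a median of 15.8 at the 8-cell stage. The NI 8-cell libraries lay inside the range of the 2-cell ones, and the log2 fold changes were -0.34 ± 0.56 in NI and -0.36 ± 0.49 in Ctrl (SE, edgeR adjusted p = 0.64 and 0.543). In Ctrl limma-voom with quality weights gave -1.10 with an adjusted p of 0.0186, and in NI the value was 0.18 without NI 2-cell replicate 4.

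Ocln encodes occludin, a membrane protein of the tight junction (chromosome 13 from 100496507 to 100552718, minus strand). It measured 1.16, 4.10, 19.9 and 21.6 CPM in NI 2-cell libraries and 3.46 to 53.6 CPM with a median of 23.4 in NI 8-cell libraries. In Ctrl it ranged from 4.95 to 50.2 CPM with a median of 15.8 at the 2-cell stage and from 10.4 to 40.5 CPM with a median of 11.8 at the 8-cell stage. Its log2 fold change was 0.99 ± 0.74 in NI and -0.02 ± 0.61 in Ctrl (SE, edgeR adjusted p = 0.265 and 0.977). In NI 3 of the 6 libraries of the 8-cell stage lay above all 4 of the 2-cell stage and the others overlapped them, and in Ctrl the stages overlapped.

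**Figure D3:**
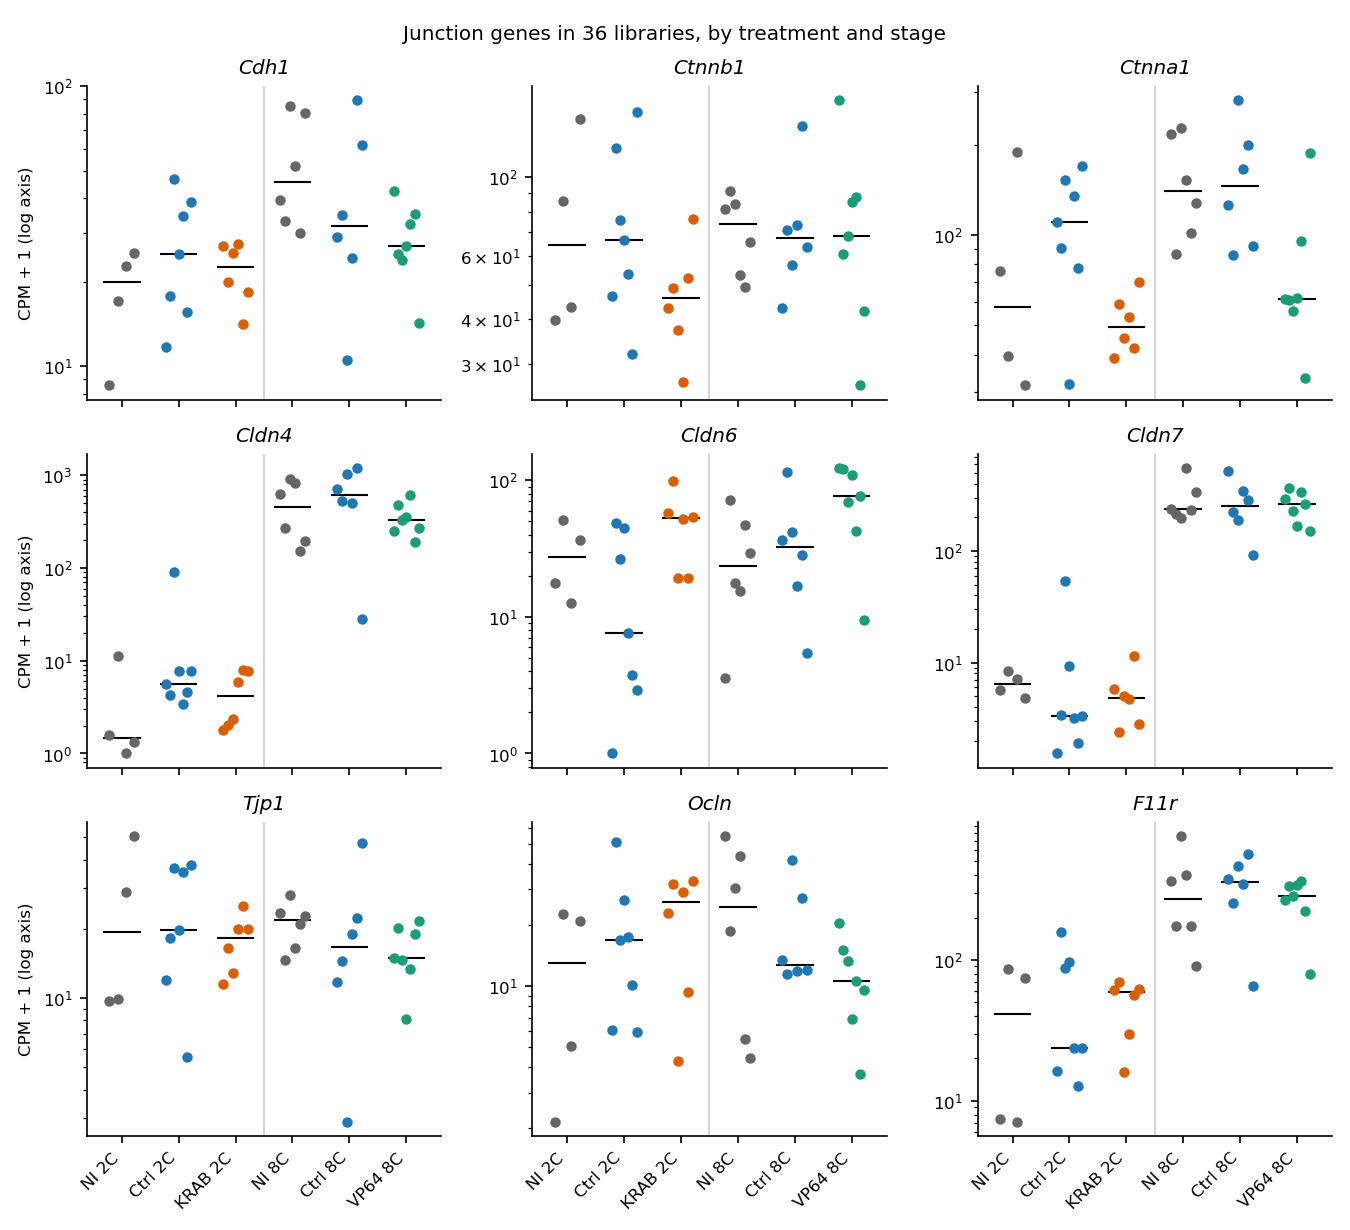
CPM plus 1 on a log axis for each of the 9 genes in 36 libraries, with 1 point per library in replicate order, a bar at the group median, and a grey line between the 2-cell groups on the left and the 8-cell groups on the right. Cdh1, Cldn4, Cldn7 and F11r have higher medians in all 3 of the 8-cell groups than in all 3 of the 2-cell groups. The nearest Cdh1 medians are close, 24.2 CPM in Ctrl 2-cell and 26.0 CPM in VP64 8-cell libraries. Ctnnb1 and Tjp1 cover the same range at both stages.

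Whether the stage difference itself differed between Ctrl and NI was tested as an interaction. The edgeR quasi-likelihood test called 0 of 13158 genes and 0 of the 9 members, a share of 0%, and 20.4% of all genes and 0 members had an unadjusted p under 0.05. The largest values were those of Cldn4, at -2.01 ± 1.20 (SE, log2, Ctrl minus NI), and Cldn6, at 1.09 ± 1.12. Without Ctrl 2-cell replicate 3 and Ctrl 8-cell replicate 6, which were picked by their Cldn4 values, the Cldn4 value was 0.12 ± 0.96. DESeq2 called 690 genes and none of the members, and limma-voom with quality weights called 3600 genes with Ctnna1 (-1.63) and Cldn6 (4.03) among them, so the Cdh1 and Cldn6 results above are not shown to differ or to be alike between the treatments.

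Among the 2-cell libraries of 1 treatment, F11r, Cldn6 and Ocln varied widely, and the high and low libraries differed in maternal transcripts too. In NI, replicates 4 and 2 had maternal sums of 5125 and 8162 CPM and F11r at 73.9 and 84.7 CPM, while replicates 1 and 3 had sums of 19602 and 43265 CPM and F11r at 6.39 and 6.14 CPM. Cldn6 was 35.8 and 50.4 CPM in the first pair and 16.8 and 11.6 CPM in the second, and Ocln was 19.9 and 21.6 CPM against 1.16 and 4.10 CPM. In each of the 3 genes both libraries with the lower maternal sum were above both with the higher one.

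In Ctrl the 3 libraries with the lowest maternal sums, 4949, 7516 and 13934 CPM in replicates 4, 2 and 3, had F11r at 96.5, 156 and 86.9 CPM and Cldn6 at 43.9, 47.5 and 25.5 CPM. The other 4, with sums from 15366 to 38772 CPM, had F11r from 11.9 to 22.9 CPM and Cldn6 from 0 to 6.65 CPM. Neither gene overlapped between these libraries, while Ocln did, at 25.5, 50.2 and 15.8 CPM against 4.95 to 16.4 CPM. In KRAB, where the maternal sums ran from 10590 to 27572 CPM, the order was looser for F11r. The library with the lowest sum had F11r at 61.1 CPM and that with the highest had 55.9 CPM. Cldn6 and Ocln were lowest in the libraries with the highest sums, replicates 3 and 5. There Cldn6 was 18.2 CPM in both and Ocln was 3.29 and 8.36 CPM. The other KRAB libraries ran from 51.5 to 97.8 CPM in Cldn6 and from 21.8 to 32.1 CPM in Ocln. The points share a library's depth and composition, and the libraries were not grouped by any label in this way. In Ctrl the split lay between close sums, 13934 and 15366 CPM. The share of all genes that separate between such sets of libraries was not computed, so the separation is not shown to be particular to these genes. The part of embryo age or of RNA carried over from the egg in these levels was not tested.

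**Figure D4:**
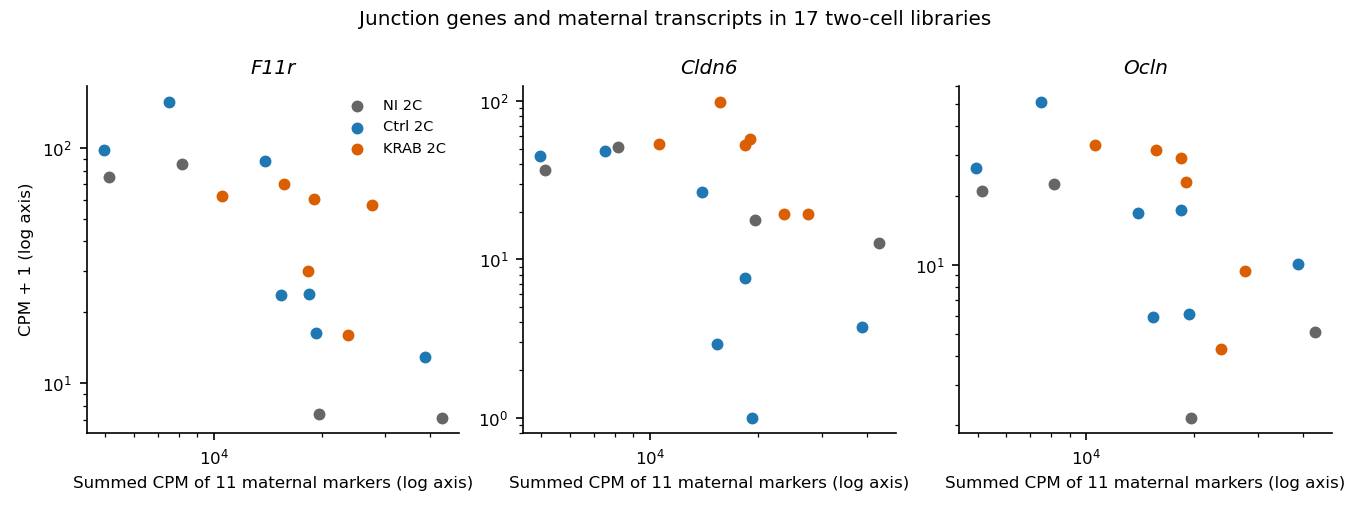
CPM plus 1 of F11r, Cldn6 and Ocln (vertical axes, log) against the summed CPM of 11 maternal marker genes (horizontal axes, log) in the 17 libraries of the 2-cell stage, with 1 point per library coloured by treatment. In NI and Ctrl the libraries with the lowest maternal sums have the highest F11r, between 73.9 and 156 CPM. The KRAB libraries show less of this order in F11r.

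Similar values were seen at the 8-cell stage in single libraries. Ctrl replicate 6 and VP64 replicate 7 had the highest maternal sums of their groups, 780 and 316 CPM, and the lowest F11r, 64.0 and 78.6 CPM, where the other Ctrl libraries were at or above 251 CPM and the other VP64 libraries at or above 220 CPM. They were also the lowest of their groups in Cldn7, at 90.99 and 149 CPM, and in Cldn6, at 4.41 and 8.57 CPM. In NI replicate 5 had the highest maternal sum, 279 CPM, and the lowest Cldn4 (153 CPM) and Cdh1 (29.0 CPM), but not the lowest F11r. Each of these libraries also had the fewest genes detected in its group. The numbers were 9672 in Ctrl replicate 6, 11343 in VP64 replicate 7 and 11505 in NI replicate 5. The part of maternal transcripts or of the number of genes detected in these levels was not tested.

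At the 2-cell stage the KRAB libraries were compared with Ctrl and NI, and the labels do not state what differs between these treatments beyond their names. No gene of 11799 was called by edgeR in KRAB against Ctrl, KRAB against NI or Ctrl against NI, so the share called was 0% in each and 0 of the 9 members were called. At an unadjusted p under 0.05 the shares of all genes were 15.6%, 3.12% and 23.4%, and 0 members reached it in any of the 3. DESeq2 called 242, 0 and 1086 genes in these comparisons, with none of the members among them, and limma-voom with quality weights called 5252, 0 and 5993 genes, with 2 members each in KRAB against Ctrl and in Ctrl against NI.

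Ctnna1 ranged from 38.0 to 68.6 CPM with a median of 48.2 in KRAB, below the Ctrl median of 110 in all 6 libraries. The log2 fold change against Ctrl was -0.91 ± 0.45 (SE, edgeR adjusted p = 0.336), and against NI, where the median was 56.7 CPM, it was -0.88 ± 0.51. The value against NI was -0.09 without NI 2-cell replicate 3, at 189 CPM the highest of its group, and 0.22 with limma-voom. Cldn6 ranged from 18.2 to 97.8 CPM with a median of 52.1 in KRAB, and 4 of the 6 libraries lay above all 7 Ctrl libraries. Its log2 fold change was 1.55 ± 0.81 against Ctrl and 0.78 ± 0.95 against NI (SE, edgeR adjusted p = 0.351 and 0.9985). Ctnna1 and Cldn6 were the members that limma-voom called against Ctrl, at -1.01 (adjusted p = 0.0167) and 3.49 (adjusted p = 0.00125). The same test called neither in KRAB against NI. In Ctrl against NI it called both, Ctnna1 at 1.23 (adjusted p = 0.0135) and Cldn6 at -2.93 (adjusted p = 0.00776). Cldn4 was 0.809 to 6.87 CPM in KRAB. Its log2 fold change against Ctrl was -1.91 ± 0.98 with all libraries and -0.23 ± 0.81 without Ctrl 2-cell replicate 3, and against NI it was 0.35 ± 1.13.

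The other members had smaller differences relative to their SE. Cdh1 had a median of 21.7 CPM in KRAB, 24.2 in Ctrl and 19.01 in NI, and its log2 fold change of KRAB against Ctrl was -0.07 with a 95% interval of -0.86 to 0.71. Ctnnb1 was 25.8 to 75.5 CPM in KRAB with a log2 fold change of -0.52 ± 0.39 (SE) against Ctrl. F11r was 15.1 to 69.3 CPM in KRAB, inside the Ctrl range, with a log2 fold change of -0.12 ± 0.66. Cldn7, Tjp1 and Ocln had log2 fold changes of -0.86 ± 0.84, -0.19 ± 0.46 and 0.30 ± 0.64 against Ctrl, and that of Cldn7 turned to 0.77 ± 0.67 without Ctrl 2-cell replicate 3. The F11r value turned to 0.44 without Ctrl 2-cell replicate 2. The granulosa sums were 363 and 437 CPM in KRAB replicates 2 and 6, above those of all other 2-cell libraries, and their part in these values was not tested. A p that misses the threshold does not show that these levels were equal.

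At the 8-cell stage VP64 libraries were compared with Ctrl and NI, where again the labels do not state what differs beyond the names. The edgeR test called 0 of 9850 genes in VP64 against Ctrl, VP64 against NI and Ctrl against NI, a share of 0% in each, and 0 of the 9 members. At an unadjusted p under 0.05 the shares of all genes were 3.99%, 7.17% and 4.36%, and the members at that level numbered 1, 4 and 0. DESeq2 called 1, 21 and 1 genes in these comparisons and none of the members, and limma-voom with quality weights called 0, 14 and 0 genes and none of the members.

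Ctnna1 was the member below the unadjusted level in VP64 against both groups. It ranged from 32.3 to 187 CPM with a median of 60.3 in VP64, where 5 of the 7 libraries lay below all 6 Ctrl libraries and all 6 NI libraries. The log2 fold change against Ctrl was -0.99 ± 0.39 (SE, edgeR adjusted p = 0.999), and against NI it was -0.88 ± 0.39 (adjusted p = 0.672). VP64 replicate 7 held the highest of the VP64 values, and without it and Ctrl replicate 6 the value against Ctrl was -1.51 ± 0.34 (adjusted p = 0.614).

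Cdh1, Cldn6 and Ocln were below the unadjusted level against NI alone. Cdh1 ranged from 13.3 to 41.1 CPM with a median of 26.0 in VP64, with a log2 fold change of -0.90 ± 0.42 against NI and -0.58 ± 0.42 against Ctrl (SE, edgeR adjusted p = 0.672 and 0.999). Cldn6 ranged from 8.57 to 122 CPM with a median of 75.4 in VP64, against medians of 31.5 in Ctrl and 22.5 in NI. Its log2 fold changes were 1.39 ± 0.67 against NI and 0.96 ± 0.66 against Ctrl (SE, edgeR adjusted p = 0.689 and 0.999). Without VP64 replicate 7, the lowest of its group in Cldn6, they were 1.59 and 1.18. Higher values were bound to follow from that choice. Ocln ranged from 2.69 to 19.4 CPM with a median of 9.60 in VP64, with log2 fold changes of -1.21 ± 0.54 against NI and -0.85 ± 0.54 against Ctrl (SE, edgeR adjusted p = 0.672 and 0.999). The comparisons of VP64 with NI and with Ctrl share the VP64 libraries, so their values are set side by side only. None of these passed after adjustment over all genes.

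The tight junction genes that rose between the stages did not reach the unadjusted level in any treatment comparison at the 8-cell stage. Cldn4 ranged from 188 to 616 CPM with a median of 329 in VP64, with a log2 fold change of -0.90 ± 0.53 (SE) against Ctrl. Cldn7 ranged from 149 to 362 CPM with a median of 265 in VP64, and its log2 fold change against Ctrl was -0.09 with a 95% interval of -0.82 to 0.64. F11r ranged from 78.6 to 361 CPM with a median of 283 in VP64, with a log2 fold change of -0.35 ± 0.45 (SE) against Ctrl, and of -0.19 ± 0.45 without VP64 replicate 7. Ctnnb1 and Tjp1 had log2 fold changes of 0.03 ± 0.36 and -0.34 ± 0.47 against Ctrl, and the Tjp1 value turned to 0.23 ± 0.42 without Ctrl 8-cell replicate 6. The granulosa sum was 435 CPM in VP64 replicate 6 and at most 112 CPM in the other 8-cell libraries. The steroid enzyme genes of that list, Hsd3b1 and Cyp11a1, had means of 32.9 and 15.4 CPM over the VP64 libraries. These means include replicate 6 and need not describe the other VP64 libraries. In NI and Ctrl Hsd3b1 was at 0 and Cyp11a1 at 0.0240 and 0 CPM. Their part in the VP64 values was not tested.

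**Figure D5:**
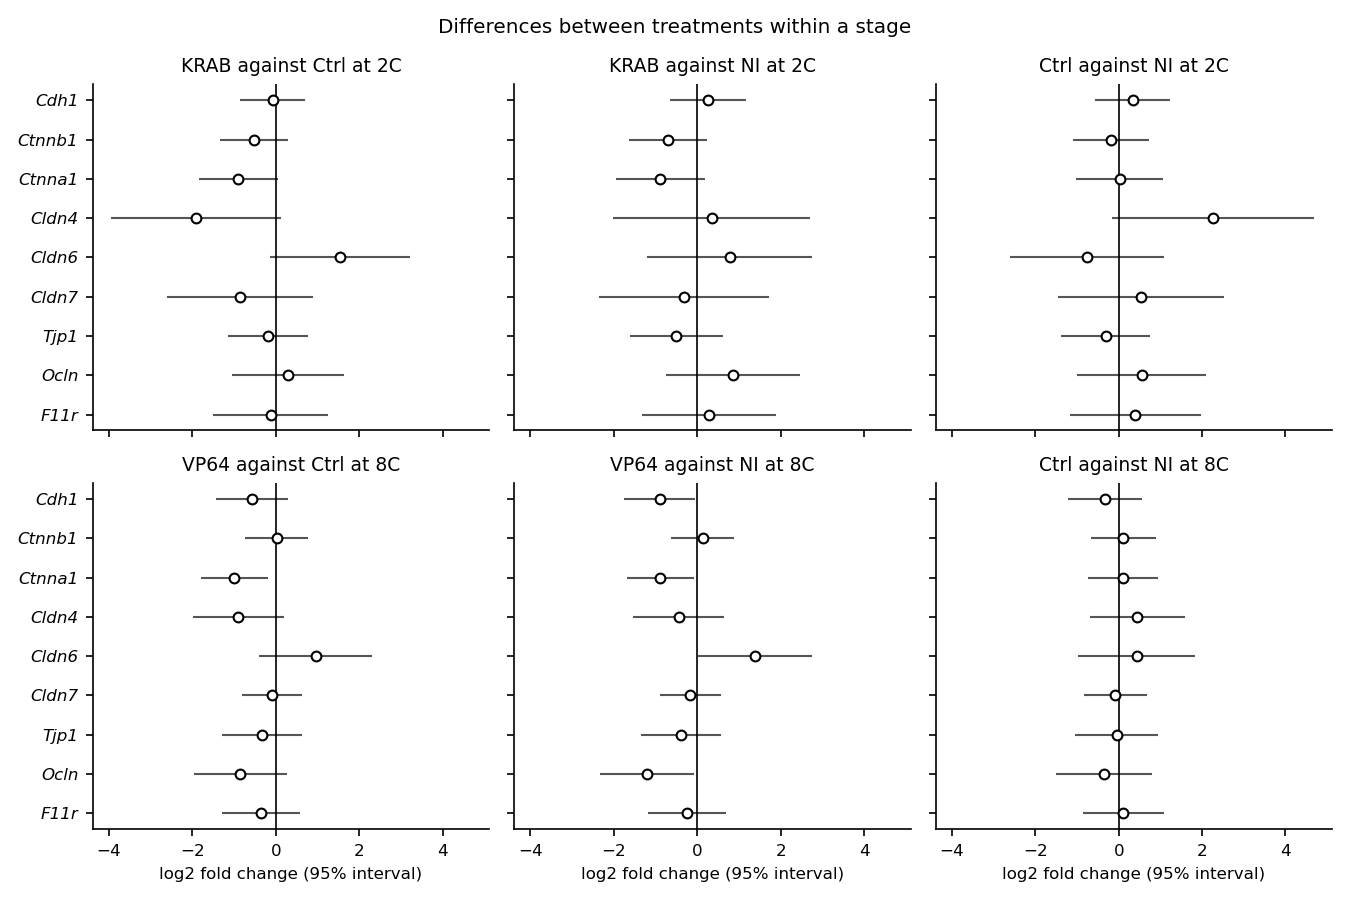
Log2 fold change with its 95% interval (horizontal axes) for the 9 genes in the 6 comparisons of treatments within a stage, the group named first minus the second. No member has an adjusted p under 0.05 in edgeR, and the intervals of Ctnna1 in VP64 against Ctrl and of Cdh1, Ctnna1, Cldn6 and Ocln in VP64 against NI leave out 0.

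Levels of different genes were compared as CPM per kilobase of transcript, on the summed length of each gene's annotated exons. At the 8-cell stage Cldn4, Cldn7 and F11r were the 3 highest of the 9 in every group, with Cldn4 first at medians of 249 in NI, 340 in Ctrl and 181 in VP64, Cldn7 at 120, 130 and 136, and F11r at 101, 135 and 106 CPM per kilobase. Those 3 overlapped each other in every group, so their order does not exceed the spread between libraries. Tjp1 was lowest in each, at medians of 2.67, 2.02 and 1.79 CPM per kilobase. At the 2-cell stage the order was different, with Cldn6 first in NI (15.3) and KRAB (30.3) and Ctnna1 first in Ctrl (17.1), and with Cldn4 (0.250 in NI, 1.72 in KRAB) or Cldn7 (1.19 in Ctrl) last. In NI F11r was nearly level with Cldn6, at a median of 15.1. The first gene overlapped the next in each 2-cell group, so which gene came first does not exceed the spread between libraries. With the longest transcript as the length, Ctnnb1 was first in NI at the 2-cell stage and Cldn7 first in VP64.

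The genes whose levels ordered the 36 libraries most like each member were taken from 8939 genes with a mean of at least 10 CPM in a group, by Spearman's rho of log2(CPM + 1). For F11r these were Sae1 (0.97), Zc3hc1 (0.97) and Zpr1 (0.97), and the likeness with Sae1 held within the 17 libraries of the 2-cell stage (0.93) and within the 19 of the 8-cell stage (0.91). For Cldn4 they were Amotl2 (0.95), Bhmt (0.94) and Vnn1 (0.94), with Amotl2 at 0.63 within the 2-cell and 0.88 within the 8-cell stage. For Cldn7 they were Psmd6, Ctu2 and Cdk4 (0.91 each), which were 0.42, 0.58 and 0.29 within the 2-cell stage. For Cldn6 they were Tsen54 (0.80), Hmox1 (0.77) and Zscan5b (0.73), for Ocln Zfp868 (0.81), Bid (0.78) and Fbxo5 (0.78), and for Ctnna1 Naa35 (0.81) and Cit (0.76). For Cdh1 they were Man2b1 (0.78), Atg2a (0.78) and St14 (0.75), for Ctnnb1 Pls3 (0.76), Dhx40 (0.71) and Calu (0.71), and for Tjp1 Ddx3x (0.68), Trim24 (0.60) and Nrd1 (0.56), the weakest of the set. These rho values are descriptions over libraries that share stage and depth.

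The wider junction lists held genes called in both directions between the stages, and their counts are read against the 18.5% of all genes higher and 31.4% lower in NI and the 22.5% and 39% in Ctrl. Of 20 further adherens junction genes tested, 5 were higher and 7 lower at the 8-cell stage in NI and 3 and 9 in Ctrl, with median log2 fold changes of 0.26 and -0.60 beside -0.47 and -0.51 over all genes, counts near the shares of all genes. Cdh2, the gene of N-cadherin, fell from a mean of 18.2 CPM to 0.297 CPM in NI (log2 fold change -5.83 ± 0.92, SE, edgeR adjusted p = 2.96e-06), the opposite direction to Cdh1. Mllt4, the gene of the actin-binding nectin partner afadin, fell from 65.2 to 14.2 CPM in NI and from 47.7 to 16.7 CPM in Ctrl.

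Of 27 other tight junction genes tested, 3 were higher and 8 lower in NI and 4 and 15 in Ctrl, with medians of -0.71 and -1.66. The count of lower genes in NI was near the 31.4% of all genes. Jam3, a relative of F11r, fell from 22.4 to 0.303 CPM in NI and from 19.2 to 0.408 CPM in Ctrl (log2 fold changes -5.96 ± 0.92 and -5.51 ± 0.88, SE, edgeR adjusted p = 1.86e-06 and 1.57e-06). Cldn8, another claudin, had 635 counts over the 7 Ctrl 2-cell libraries and 0 over the 6 Ctrl 8-cell libraries, which, taking 3 counts in the group as the floor, is at least 101-fold lower. The scaffold genes Mpdz and Magi1 fell in both treatments, Mpdz from 36.95 to 1.54 CPM and Magi1 from 12.9 to 2.05 CPM in NI. Amotl2, which encodes an angiomotin of the junction, rose from 0.293 to 27.4 CPM in NI and from 1.67 to 29.7 CPM in Ctrl.

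Of 5 desmosome genes tested, 1 was higher and 1 lower in each treatment, with medians of -0.59 in NI and -0.75 in Ctrl. The one that rose was Perp, from 1.33 to 64.2 CPM in NI and from 3.30 to 79.0 CPM in Ctrl. Of 4 gap junction genes tested, 2 were higher and 2 lower in each treatment, with medians of -0.16 and 0.01. The connexin gene Gja1 rose from 53.4 to 667 CPM in NI and from 29.2 to 601 CPM in Ctrl. Gja4, a connexin gene known from the oocyte, fell from 6.97 to 0.394 CPM in NI.

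Of 26 genes of the actin cortex and contractility tested, 6 were higher and 7 lower in NI and 5 and 8 in Ctrl, with medians of 0.18 and -0.20, where 18.5% and 31.4% of all genes were higher and lower in NI and 22.5% and 39% in Ctrl, so these counts were near or below the shares of all genes. Rock1, a kinase that activates myosin, fell from 682 to 45.9 CPM in NI and from 183 to 42.4 CPM in Ctrl, and Rdx, which encodes the membrane-actin linker radixin, fell from 176 to 29.2 CPM and from 125 to 20.5 CPM. Of 31 regulators of cadherin and epithelial genes tested, 5 were higher and 8 lower in NI and 7 and 13 in Ctrl, with medians of -0.23 and -0.22, also near those shares. Apc and Axin2, which encode parts of the complex that marks beta-catenin for breakdown, fell from 141 to 13.1 CPM and from 38.97 to 1.29 CPM in NI, while Ctnnb1 itself did not pass the test.

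Of 12 epithelial surface and protease genes tested, 9 were higher and 1 lower in NI and 8 and 1 in Ctrl, with medians of 2.46 and 1.67, where 18.5% and 22.5% of all genes were higher. Aqp3, the gene of a water and glycerol channel, rose from 1.83 to 149 CPM in NI and from 9.45 to 162 CPM in Ctrl. Prss8, a membrane protease gene, was the one that fell, from 29.5 to 0.719 CPM in NI and from 17.1 to 0.403 CPM in Ctrl. The members of these lists were chosen with earlier results of these data in view, and in the treatment comparisons within a stage 0 of their genes were called by edgeR.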

How the data were processed

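RNA was measured in 36 libraries of pooled mouse embryos, grouped by the labels' treatment and stage; replicate numbers follow accession order and pair nothing. The deposited values are expected counts, one per gene symbol and library, which the authors obtained with RSEM after Bowtie2 alignment to mm10, as the submitters' processing notes list them; tool versions and the gene models are not given in these sources. Per-sample columns not used numbered 0. Counts were rounded and tested with edgeR 4.0.16 (limma 3.58.1, R 4.3.3): TMM, filterByExpr (minimum count 10, minimum total 15), robust quasi-likelihood fit, Benjamini-Hochberg at 0.05 over all genes. Stage comparisons and the interaction used all 36 libraries (13158 genes), treatment comparisons the 17 libraries of the 2-cell stage (11799 genes) or the 19 of the 8-cell stage (9850 genes), at biological coefficients of variation of 0.703, 0.738 and 0.609. The reads carry no molecular identifiers, so a floor of 3 counts covers counting error only, and depth limits low values such as Cldn4 at the 2-cell stage. No replicate pair agreed within sampling noise (lowest chi-square per degree of freedom 7.75 over 93 pairs). Scripts were tested on simulated data. Alternatives were DESeq2 1.42.0, limma-voom with quality weights, other scalings and filters, a minimum of 1500000 counts per library, and leaving out single libraries. Unplanned fits left out pairs of libraries picked by their Cldn4 or F11r values. Coordinates come from GENCODE vM21 on GRCm38, which mm10 denotes. The members, lists and rules were chosen with earlier results of these data known. Named were all 9 members, the 3 genes most like each by Spearman's rho, and from each wider list examples among up to 3 genes per treatment with the smallest p past the threshold. Some genes that the rule named are left out of the text.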

Additional observations from a re-analysis of the deposited data

Results flagged for a closer look

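Within the 54 sets of 1 gene in 1 group, 5 held a library farther from the rest than a 95% Dixon criterion allows, where chance alone marks about 1 in 20 sets. Cldn4 was 90.45 CPM in Ctrl 2-cell replicate 3, with the next highest library at 6.74 CPM. Cldn4 was 27.02 CPM in Ctrl 8-cell replicate 6, with the next lowest at 500 CPM, and F11r was 63.97 CPM in that library, with the next lowest at 251 CPM. In VP64 8-cell replicate 7, Cldn6 was 8.568 CPM beside a next lowest of 41.7 CPM, and F11r was 78.59 CPM beside 220 CPM. The summed maternal markers were 780 CPM in Ctrl 8-cell replicate 6 and 316 CPM in VP64 8-cell replicate 7, the highest of their groups, and 13934 CPM in Ctrl 2-cell replicate 3. Genes detected numbered 9672 in Ctrl 8-cell replicate 6 and 11343 in VP64 8-cell replicate 7, the fewest of their groups. In Ctrl 2-cell replicate 3 they numbered 16194, the most of its group. The part of maternal transcripts or of the number of genes detected in these values was not tested.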

How the results depend on the processing

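Of 1818 values recomputed for the 9 genes in 94 fits, 145 concerned the 7 stage calls, of which 142 kept their call, 3 lost it (all for Cdh1 in NI) and 0 changed sign. Of the 1673 others, 11 passed the threshold and 129 changed sign, 20 of them by more than 1 SE; none of these was called in the fit reported. With limma-voom and quality weights the genes called numbered 5 of 9 in either treatment between stages (Ctnna1 gained in NI, as in libraries of at least 1500000 counts) and 2 each in the interaction, in KRAB against Ctrl and in Ctrl against NI at the 2-cell stage; the cause was not tested. Counts over all genes, 0 in edgeR, moved more. For the interaction they were 2 without the low-count filter, 690 with DESeq2, 3600 with limma-voom, 698 in libraries of at least 1500000 counts, and 0 to 1098 leaving out 1 library (1098 without Ctrl 2-cell replicate 6, 265 without replicate 4 and 84 without replicate 2). For KRAB against Ctrl they were 242 (DESeq2), 5252 (limma-voom) and 0 to 159 leaving out 1 library (159 without Ctrl 2-cell replicate 6). For Ctrl against NI at the 2-cell stage they were 1086 (DESeq2), 5993 (limma-voom), 254 at that depth minimum, and 0 to 1374 leaving out 1 library (1374 without the same replicate). At the 8-cell stage they were 1 in VP64 against Ctrl (DESeq2), 21 (DESeq2) and 14 (limma-voom) in VP64 against NI, and 1 in Ctrl against NI (DESeq2). With library totals 14 of the 27 most similar genes stayed the same, and with the longest transcript 10 of 54 levels per kilobase moved by over 1 SD. No paired analysis was possible because the labels give no shared replicate numbers.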
